A study of Mus musculus with 4 samples.

Results

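The regions bound by CTCF at the mouse alpha and beta globin gene clusters were described in WEHI-231, a B cell lymphoma line from a (BALB/c x NZB)F1 mouse, with and without a stable knockdown of the transcription factor TFII-I. The CTCF peaks of 4 libraries were merged where they overlapped by at least 1 bp, and a region was taken when its centre fell between 110850000 and 111150000 on chromosome 7 (beta globin, with flanking olfactory receptor genes) or between 32050000 and 32350000 on chromosome 11 (alpha globin), both in the build mm9. This gave 17 of 29116 regions, 3 in the beta window and 14 in the alpha window, each window being 300 kb wide. The libraries were 2 of control cells and 2 of TFII-I knockdown cells, all from chromatin immunoprecipitation with a commercial CTCF antibody and sequencing (ChIP-seq). The title of the series asks whether TFII-I targets CTCF to promoters. The sources used here do not give the knockdown construct, what the control cells carry or whether either line is a single clone. Nor do the labels tie the replicates to separate cultures, and p-values then measure only the spread between these libraries, which may be technical.

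Globin genes encode the protein chains of haemoglobin and are transcribed in red cell precursors, where distant enhancers reach the promoters by looping of the chromatin. The beta cluster, with the embryonic genes Hbb-y and Hbb-bh1 and the adult genes (Hbb-b1 and Hbb-b2 in BALB/c, Hbb-bs and Hbb-bt in the C57BL/6 reference), is controlled by a locus control region and is flanked by CTCF sites amid olfactory receptor genes, which are active in sensory neurons. The alpha cluster holds the embryonic gene Hba-x, the adult genes Hba-a1 and Hba-a2 and the theta genes Hbq1a and Hbq1b, and its enhancers lie in and around the neighbouring housekeeping gene Nprl3. CTCF is a zinc finger protein that stops extruding cohesin and so sets the ends of chromatin loops. B cells are not a site of haemoglobin production, and globin transcription was not analysed here.

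The CTCF core motif was looked for in globin promoters, because no mm9 sequence of the bound regions was used here. Of 12 globin genes of both clusters, 9 matched the RefSeq promoter table by symbol (build GRCm38.p6), and the 250 bases before each start were searched on both strands. The core CCAGGGGGC was found in 2 of the 9, the theta genes Hbq1b and Hbq1a, and in 0.922% of all 32851 promoters of this length. Both theta matches lay on the strand opposite to the gene, from 30 to 22 bases before the start. These letters were not in the windows of Hbb-bt, Hbb-bs, Hbb-bh2, Hbb-y, Hba-x, Hba-a1 and Hba-a2. The shorter and looser AGNNGGC, which overlaps every match of the core, was found in 6 of the 9 and in 52.5% of all promoters. The last 150 bases before the start are shown for both theta genes, with the core in capitals as it reads on the strand of the gene, and for an adult gene of each cluster, with the CCAAT box in capitals.

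Hbq1b, GRCm38.p6, plus strand: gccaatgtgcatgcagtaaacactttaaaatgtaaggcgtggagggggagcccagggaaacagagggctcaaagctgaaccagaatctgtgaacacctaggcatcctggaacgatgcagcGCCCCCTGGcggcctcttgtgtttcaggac
Hbq1a, GRCm38.p6, plus strand: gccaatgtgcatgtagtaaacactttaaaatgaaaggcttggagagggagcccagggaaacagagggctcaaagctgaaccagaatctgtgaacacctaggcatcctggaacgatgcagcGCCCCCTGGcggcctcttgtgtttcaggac
Hba-a1, GRCm38.p6, plus strand: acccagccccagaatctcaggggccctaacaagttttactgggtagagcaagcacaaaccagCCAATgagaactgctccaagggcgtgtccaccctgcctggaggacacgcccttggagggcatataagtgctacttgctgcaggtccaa
Hbb-bs, GRCm38.p6, minus strand: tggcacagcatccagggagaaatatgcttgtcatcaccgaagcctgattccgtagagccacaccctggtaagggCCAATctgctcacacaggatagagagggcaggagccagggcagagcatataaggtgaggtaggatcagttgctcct

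The CCAAT box, read here on either strand as CCAAT, was found in 7 of the 9 globin promoters and in 33.8% of all promoters. The alpha cluster is made of copies that are close in sequence. The promoters of Hba-a1 and Hba-a2 were identical over 247 of 247 bases aligned without gaps, and those of Hbq1b and Hbq1a over 239 of 250 (95.6%). How reads that fit more than 1 place were handled is not stated in the labels or notes, and its part in the peaks of the alpha cluster was not tested. In the GRCm38 gene table the order of genes on chromosome 11 is Il9r, Snrnp25, Rhbdf1, Mpg, Nprl3, Hba-x, Hba-a1, Hbq1b, Hba-a2, Hbq1a and Sh3pxd2b. On chromosome 7 the beta globin genes Hbb-bt, Hbb-bs, Hbb-bh2, Hbb-bh1 and Hbb-y stand between Olfr67 and Olfr66. No mm9 annotation was used here, so the bound regions are given by position and are not assigned to these genes.

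Each deposited list gives a score per peak, the authors' own value, which ran from 50 to 3100 and was read as the negative log10 of a p, multiplied by 10. Sequencing depth is unknown, and such a score rises with depth as well as with enrichment. The control lists held 24467 and 23873 peaks and the knockdown lists 19076 and 15309 (replicate 1 before replicate 2, as throughout), with median scores of 111, 107, 85.5 and 79.1 in that order. Lower scores and missing calls in the knockdown lists are therefore set beside the same values over all regions.

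**Figure D1:**
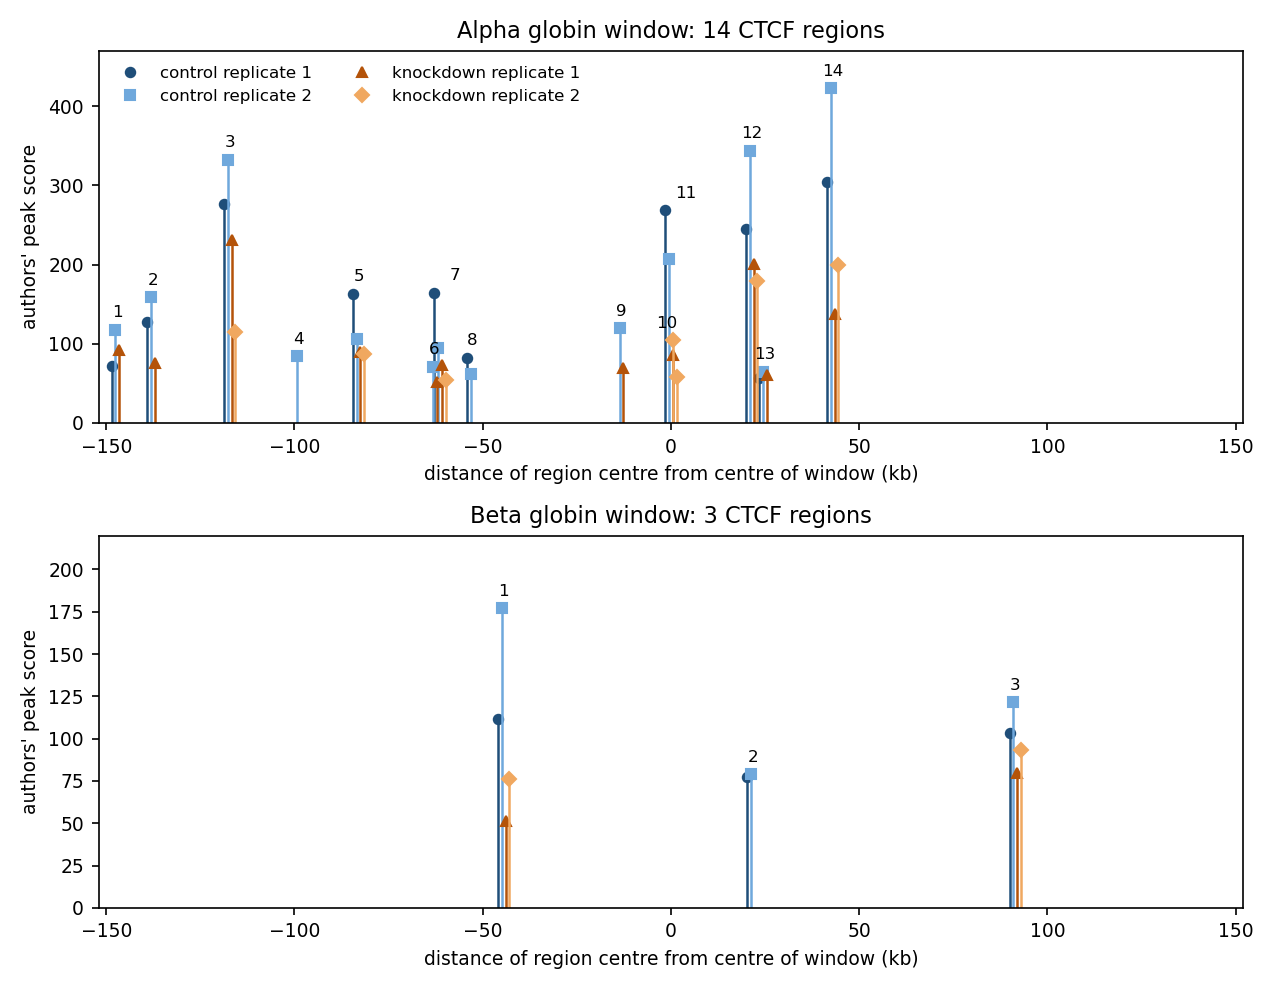
Authors' peak score of every CTCF region in the alpha window (top, 14 regions) and the beta window (bottom, 3 regions) against the distance of its centre from the centre of the window in kb; each symbol is a library, shifted slightly sideways, a missing symbol is a missing call, and the numbers name the regions. The symbols of alpha region 11 stand at 269 and 208 for the controls but at 86.1 and 57.7 for the knockdown, and beta region 2 has symbols of both controls alone.

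The beta window held 3 CTCF regions. They are numbered here from the lower coordinate, and beta region 1 lay on chromosome 7 from 110955292 to 110955933. Its control scores were 111 and 177 and its knockdown scores 51.3 and 76.0, or 144 ± 46.5 against 63.6 ± 17.5 (SD, n = 2). The score of knockdown replicate 1 was just above the lowest that the lists hold. Both knockdown scores lay below both control scores, as in 62% of all regions called in all 4 libraries.

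Beta region 2, from 111021472 to 111022093, was called in the controls alone. Its control scores were 77.2 and 78.8, at the 26.0th and 28.5th percentile of all peaks of those lists, so that it was a weak peak in both. The nearest knockdown calls were those of beta region 1, with gaps of 65657 bp in replicate 1 and 65538 bp in replicate 2. By control rank, all regions with calls in both controls were placed in 10 strength groups of equal size, from the weakest to the strongest. Beta region 2 fell in strength group 2, where 32.2% of all regions had no knockdown call.

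Beta region 3, from 111091092 to 111091769, was called in all 4 libraries. It had control scores of 103 and 121 and knockdown scores of 79.9 and 93.3, or 112 ± 12.9 against 86.6 ± 9.42 (SD, n = 2). The knockdown scores again lay below both control scores, by less than at beta region 1. The ratio of mean scores, knockdown over control, was 0.77 at beta region 3 and 0.44 at beta region 1.

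Wide stretches without a call surrounded these regions. Gaps of 65538 and 68998 bp separated beta regions 1, 2 and 3. The next region to the left of beta region 1 stood 886802 bp away, and the next to the right of beta region 3 stood 256363 bp away. A tile of 300 kb on the autosomes held a median of 2 regions, and 61.2% of 8031 such tiles held 3 or fewer.

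The alpha window held more regions, closer together. Only 2.69% of the tiles held 14 or more regions. The median gap between neighbouring alpha regions was 15391 bp, with a range of 526 to 39100 bp. The 14 regions spread over the left and middle parts of the window, and the next region to the right of alpha region 14 stood 106642 bp away. That region, from 32349955 to 32350587, was called in all 4 libraries with scores of 257, 182, 199 and 91.8, but its centre lay 271 bp outside the window. Alpha region 1 was the nearest to an edge among those inside, with its centre 2953 bp from the left edge.

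In the alpha window 6 regions were called in all 4 libraries, and 4 of these fell in strength group 10, the strongest. Alpha region 3, from 32082559 to 32083088, reached 277 and 333 in the controls against 231 and 115 after knockdown. Alpha region 12, from 32221092 to 32221755, had 245 and 344 in the controls against 201 and 179 after knockdown. Alpha region 14, from 32242677 to 32243312, had 304 and 422 in the controls against 138 and 199.6 after knockdown. All 3 stayed strong within each list, between the 81.2nd and the 99.0th percentile of its peaks.

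Alpha region 11, from 32199757 to 32200258, was also in strength group 10, with the lowest control scores on average of these 4, and ranked far lower in the knockdown lists. Its control scores were 269 and 208, at the 96.1th and 90.8th percentile of those lists. Its knockdown scores were 86.1 and 57.7, at the 50.8th and 14.5th percentile. The mean scores were 238 ± 43.3 and 71.9 ± 20.1 (SD, n = 2), a ratio of 0.30. Both knockdown scores lay below both control scores, as in 62% of all regions called in all 4 libraries. Its neighbour alpha region 12, with a gap of 20833 bp between them, lay between the 94.5th and the 98.3rd percentile in all 4 lists.

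A peak called in knockdown replicate 2 alone lay 526 bp to the left of alpha region 11. This alpha region 10, from 32198711 to 32199230, scored 104 in that library, at the 74.8th percentile of its list, and so stood above the 57.7 of alpha region 11 there. It was the single one of the 17 regions with a knockdown call and no control call, a class that made up 5.84% of all regions. Knockdown replicate 1 had no call within 679 bp of it.

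The other 2 alpha regions called in all 4 libraries were of middling strength. Alpha region 5, from 32116731 to 32117340, reached 163 and 106 in the controls against 89.4 and 87.0 after knockdown. Alpha region 7, from 32138318 to 32139006, reached 164 and 95.0 against 72.7 and 54.6. At both, control replicate 2 stood closer to the knockdown libraries than to control replicate 1.

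The remaining alpha regions were missing from 1 or more lists. Alpha regions 1 (32052621 to 32053284), 2 (32062235 to 32062696) and 13 (32224673 to 32225123) were called in both controls and in knockdown replicate 1. Alpha region 1 scored 72.5 and 118 in the controls and 91.7 in knockdown replicate 1, between both control values. Alpha region 2 scored 128 and 159 in the controls and 75.8 in knockdown replicate 1. Alpha region 13 scored 56.2 and 64.8 in the controls and 61.0 in knockdown replicate 1, and lay in strength group 1, the weakest. Of the globin regions called in both controls, 0 had a knockdown call in replicate 2 alone, against 7.63% of all such regions.

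Alpha region 8, from 32147060 to 32147527, was the one alpha region called in both controls and in neither knockdown library. Its control scores were 82.2 and 62.4, at the 29.9th and 13.96th percentile of those lists, and the nearest knockdown calls stood 8203 and 8155 bp away. Like beta region 2 it belonged to strength group 2. Leaving out a library loosens this condition. Without knockdown replicate 1 the number of such alpha regions rose from 1 to 4, by alpha regions 1, 2 and 13. Without control replicate 1 it rose to 2, by alpha region 4, which was called in control replicate 2 alone.

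Finally, 3 alpha regions were found in control replicate 2 but not in control replicate 1. Alpha regions 6 (32136904 to 32137573) and 9 (32186628 to 32187131) were called in control replicate 2 with scores of 70.8 and 120, and in knockdown replicate 1 with scores of 51.9 and 68.9. This pair of libraries alone shared 1.73% of all regions. Alpha region 4 (32100994 to 32101339) was called in control replicate 2 alone, with a score of 84.0; regions of a single library made up 20% of all regions and 2 of the 17 globin regions. Alpha region 6 lay 744 bp from alpha region 7, and alpha region 13 lay 2917 bp from alpha region 12.

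Most globin regions kept a CTCF call in the knockdown libraries. Of the 13 regions called in both controls, 8 (61.5%) were called in both knockdown libraries, against 56.5% of all 20780 such regions. A further 3 (23.1%) were called in knockdown replicate 1 alone, against 21.1%, and 2 (15.4%) had no knockdown call, against 14.8%. These shares are near those of all regions and are not read as particular to the globin loci. Over all 17 regions 8 were called in every library, against 40.3% of all regions.

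**Figure D2:**
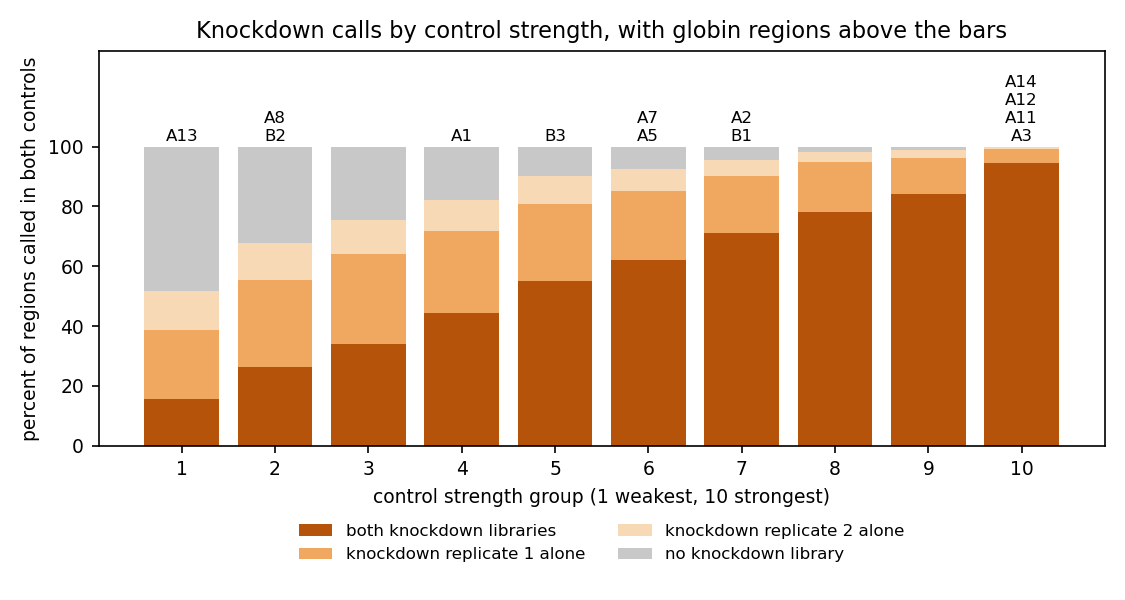
Knockdown calls of the 20780 regions called in both controls, as percent of regions (y axis) in each control strength group (x axis, 1 weakest to 10 strongest); A and B with a number stand for the alpha and beta globin regions of that group. Both globin regions without a knockdown call (A8 and B2) stand in group 2, where 32.2% of regions had none, and 4 alpha regions stand in group 10, where 94.5% were called in both knockdown libraries.

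The number of peaks in the windows was lower in the knockdown lists at the beta locus and overlapped between groups at the alpha locus. The beta window held 3 peaks in each control and 2 in each knockdown library. The alpha window held 10 and 13 control peaks against 11 and 7 knockdown peaks, or 11.5 ± 2.12 against 9 ± 2.83 (SD, n = 2). Taking both windows, knockdown libraries held 75.9% as many peaks as controls on average, against 71.1% for the complete lists. The two-sided exact permutation test gave p = 0.333 for the beta window and p = 0.667 for the alpha window, and 2 libraries against 2 allow no p under 0.333. The alpha difference of -2.5 peaks ran from -4.5 without knockdown replicate 1 to -0.5 without knockdown replicate 2, and was -4 and -1 without control replicates 1 and 2. With each list limited to its 15309 highest-scoring peaks, the alpha difference was 0 and the beta difference went from -1 to -0.5 peaks (two-sided exact permutation p = 1 for both).

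The 8 regions called in all 4 libraries had lower scores in the knockdown lists throughout. Both knockdown scores lay below both control scores in 8 of 8, against 62% of all 11741 regions called in all 4, and above them in 0 of 8, against 1.93%. The ratio of mean scores, knockdown over control, had a median of 0.53 in the 8 regions and 0.66 in all. These comparisons are with regions of all strengths, and none was made at matched control strength. Because scores depend on the depth of each list, the 11741 regions were then ranked by score within each library, as a percentile from the weakest to the strongest.

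**Figure D3:**
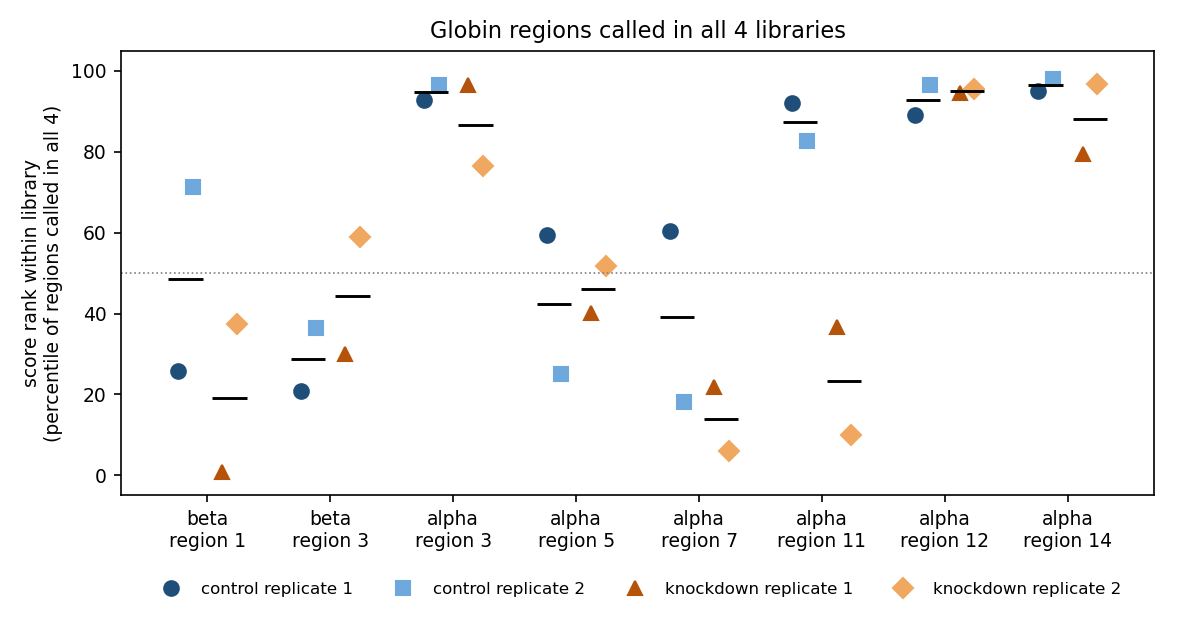
Rank of the 8 globin regions called in all 4 libraries (y axis, percentile by score within each library among the 11741 regions called in all 4); symbols are libraries and black bars are group means of 2 libraries. Alpha region 12 stays above 89 in every library, alpha region 11 falls from 92.1 and 82.7 to 36.6 and 10.1, and the control replicates differ widely at beta region 1 and alpha regions 5 and 7.

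The mean rank of the globin regions was lower in the knockdown libraries, and alpha region 11 made up much of the difference. The mean rank of the 8 regions was 66.9 and 65.6 in the control libraries against 50.01 and 54.1 in the knockdown libraries. The difference of the group means, 66.3 ± 0.963 and 52.1 ± 2.93 (SD, n = 2), was -14.2 percentile points, with a two-sided exact permutation p = 0.333, the smallest possible. The groups did not overlap, and the mean difference over all 11741 regions is 0 by construction. Without alpha region 11, left out after its value was seen, the mean difference of the other 7 was -7.06 points. The median was -8.25 points for the 8 regions and -0.0234 for all. The median control rank was 68.0 for the 8 regions and 49.5 for all 11741, but only 4 of the 8 had a mean control rank over 50. These 4 were in strength group 10, where the median difference of all regions called in every library was -8.39 points. The rest of the 8 lay in strength groups 5 to 7, for which this median was not taken. The groups are formed from the same control scores that enter the difference. How far this lowers the difference in a strong group was not tested. The lower average is not read as particular to the globin loci.

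Alpha region 11 itself had control ranks of 92.1 and 82.7 and knockdown ranks of 36.6 and 10.1. This difference of -64.1 points was reached or passed by 35 of the 11741 regions (0.298%). Among the 1963 regions of strength group 10 that were called in all 4 libraries, 26 (1.32%) had a difference as low. The region was singled out after its values were seen, so these shares describe its place among all regions and are no test. It was also the 1 globin region of 8 whose knockdown ranks both lay below its control ranks, against 17.9% of all regions.

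At the other 7 regions the ranks of the groups overlapped. Beta region 1 differed by -29.3 points, but control replicate 1 stood at 25.7 and control replicate 2 at 71.2, with knockdown ranks of 0.911 and 37.5. Alpha region 7 differed by -25.3 points, with control ranks of 60.4 and 18.1 and knockdown ranks of 21.8 and 5.99. The spread between the controls was larger than the difference at both.

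The strong alpha regions 3 and 14 differed by -8.14 and -8.36 points, near the median of strength group 10. At each a single knockdown library was low. Alpha region 3 stood at 96.6 in knockdown replicate 1 and 76.5 in replicate 2, and alpha region 14 at 79.4 and 96.8. Alpha region 12 differed by 2.17 points and alpha region 5 by 3.73. Beta region 3 had the largest difference in favour of the knockdown, 15.8 points, with control ranks of 20.9 and 36.4 and knockdown ranks of 29.9 and 59.0. No globin region had both knockdown ranks above both control ranks, against 19.2% of all regions.

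**Figure D4:**
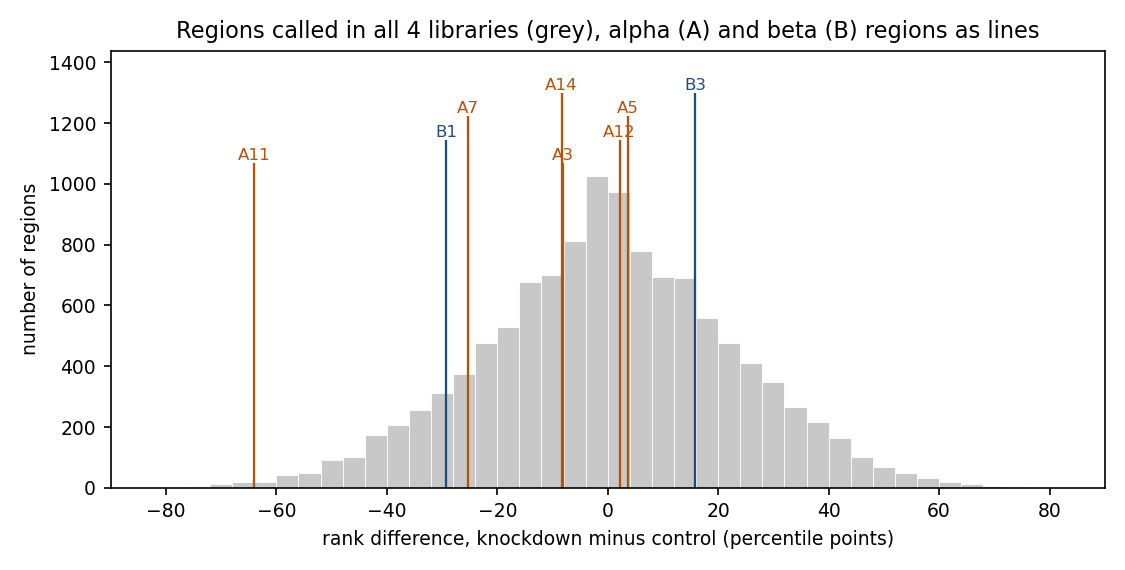
Number of regions (y axis, grey bars) by the difference of mean rank, knockdown minus control, in percentile points (x axis), for the 11741 regions called in all 4 libraries; lines mark the alpha (A) and beta (B) globin regions. Alpha region 11 lies at -64.1 in the lower tail, and the other 7 lie between -29.3 and 15.8.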

How the data were processed

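CTCF ChIP-seq was compared in 2 control and 2 TFII-I knockdown libraries of WEHI-231. BWA, HOMER and mm9 appear in the submitters' processing notes, without roles or versions, and the peak names carry the word MACS. Settings of the caller and any input library: not given in the sources used here. Each library has its own deposited list, with a position and the authors' score per peak (column 6), and no tag counts or depth. The score was used as deposited.

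Peaks overlapping by 1 bp were merged, and a region took the highest score per library. Control strength is the mean rank in both controls among regions called in both. Ranks among regions called in all 4 libraries replaced the planned ranks within lists, whose lengths differ. Groups are compared as means ± SD over 2 libraries, by exact permutation. All regions in the windows are named. The members and lists were chosen with earlier results of these data known. The merging was tested on simulated lists of well separated peaks, shifted slightly without a change of width. Close neighbours and overlapping peaks of unlike width, as in these windows, were not part of it. Alternatives were other overlap rules, a stricter score, equal list length, another window rule, each library left out and pairing by replicate number. Python 3.11.15, numpy 2.4.6, pandas 2.3.3, scipy 1.17.1 and matplotlib 3.10.9 were used.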

Additional observations from a re-analysis of the deposited data

How the results depend on the processing

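Of 85 alternative values for 9 results, 73 kept their direction or stayed within 1.5 times the count, 12 moved and 0 reversed. Part of the 73 was fixed in advance, as pairing by replicate number changes only the p and not the difference. Leaving out a library also loosens the condition of a call in every list. With reciprocal overlap of 50%, alpha and beta regions called in both controls and in no knockdown library numbered 2 and 0. Beta region 2 came apart into separate control peaks of 212 and 622 bp. At alpha region 13 the knockdown replicate 1 peak of 181 bp separated from the control peaks of 446 and 426 bp. With a score of at least 100, which fewer peaks reach by construction, regions of both controls and no knockdown library numbered 3 and 2. Regions called in all 4 libraries then numbered 3 and 0. With lists limited to 15309 peaks, 0 alpha and 0 beta regions were without a knockdown call while called in both controls, the beta window held 1 region called in all 4, and the peak difference was 0 in the alpha and -0.5 in the beta window. Leaving out 1 library, which loosens the condition, gave 1 to 4 alpha regions called in the remaining controls and in no remaining knockdown library. The mean rank difference of -14.2 points ran from -15.1 to -10.9 without single libraries and was -10.8 at equal length. With a score of at least 100 it was -14.1 points over 3 alpha and 0 beta regions, alpha region 11 not being among them. These settings chose the regions anew, with ranks among the regions called in every list used, so the sets differ. The -10.9 points, without knockdown replicate 2, covered 9 alpha and 2 beta regions, and the -10.8 points 6 alpha and 1 beta. With percentiles within the whole lists, the difference was -19.8 points. Ranks within lists were the planned measure, which ranks among regions called in all 4 libraries replaced. As an alternative this setting was added after seeing the data. The replicate block left the differences at -14.2 points and at -2.5 and -1 peaks (exact sign-flip p = 0.5, 1 and 0.5, with 0.5 the smallest possible for 2 pairs). Libraries paired in this way are known to share only a number. Their rank deviations over the 11741 regions correlated at 0.0105, which cannot tell whether they shared a culture.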
